A study of Mus musculus with 28 samples.

Results

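Mouse bone marrow derived macrophages sorted as having taken up no T cell were compared after IFN-γ and after IL-10, the 2 cytokines of the study, in 4 libraries each. These 8 of the 28 libraries were chosen by their labels alone, with no measured value, and only they entered the fit. The macrophages were wild type, were treated with 50 ng/mL of IFN-γ or IL-10 for 48 h, shared a culture with apoptotic regulatory and conventional CD4 T cells (killed with ATP or NAD and stained with a fluorescent CD4 antibody), and were then sorted as cells that had taken up neither. Both groups therefore met dying T cells and differ, by their labels, in the cytokine alone. The 4 untreated (M0) libraries are given beside them as a description without a test, because their labels name neither T cells nor a sort. Nothing in the labels says that the 4 libraries of a group came from separate animals or cultures, so the p-values measure the spread between these libraries, which may be technical.

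IFN-γ binds a receptor that activates the kinases JAK1 and JAK2, and through them transcription from GAS elements of promoters and, by way of the induced factor IRF1, from related elements called ISREs. In macrophages this arms the cell against intracellular microbes and raises antigen presentation. IL-10 acts through JAK1, TYK2 and STAT3, and is known for restraining inflammatory cytokine production and for raising receptors and inhibitors that damp the response.

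Transcript levels were deposited as TPM, the share of a library taken by a gene's transcripts per length, scaled to a fixed total. Of 12089 genes tested, 54.8% differed between IFN-γ and IL-10 at an adjusted p under 0.05 (limma, Benjamini-Hochberg); 27.8% were higher under IFN-γ and 27.0% lower. The 2 groups of libraries did not overlap for 52.0% of genes. A call alone therefore says little about a gene here, and a stricter count, of genes that also differed by at least 1 on the log2 scale, is given beside it. That count held 14.0% of genes, with 9.06% higher and 4.91% lower, or 1095 and 594 genes. Without the scaling factor the order of these counts turns, to 767 higher and 1307 lower. All fold changes below are IFN-γ minus IL-10 on the log2 scale of scaled TPM with 1 added, which understates the change of genes with low levels. The median over all genes tested was −0.03. Values with ± are means and SDs of the 4 libraries of a group, in TPM as deposited, and values by library are in the order of replicates 1 to 4.

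**Figure D1:**
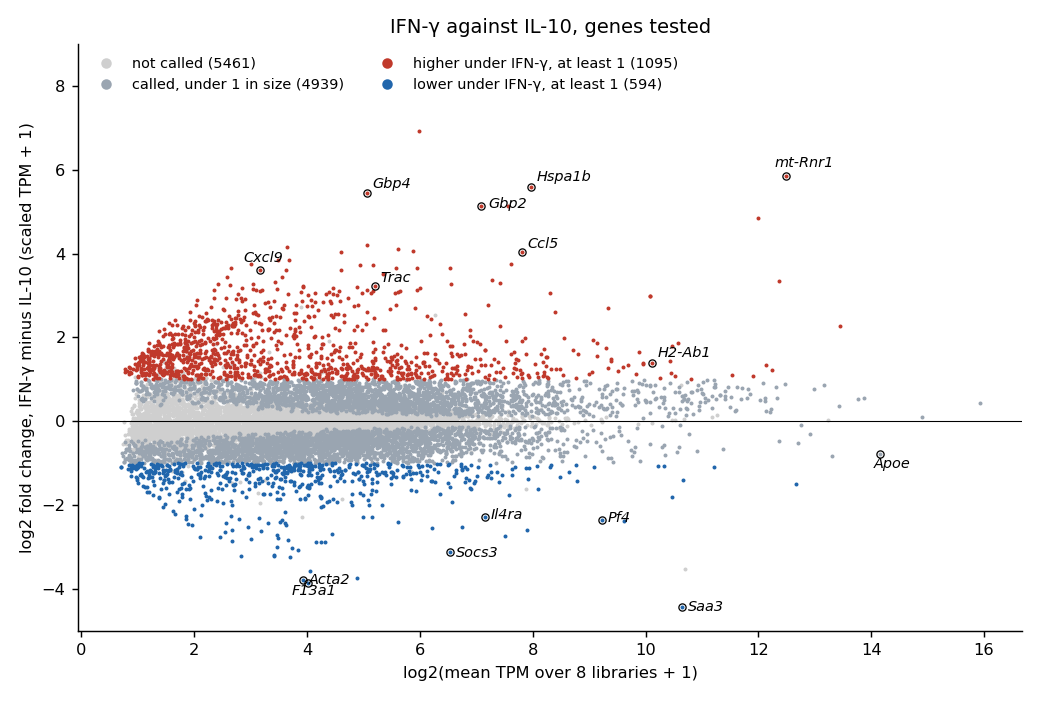
Each point is 1 of the 12089 genes tested, with its mean level over the 8 libraries on the x axis and the log2 fold change, IFN-γ minus IL-10, on the y axis. The 1095 red genes were called higher under IFN-γ by at least 1, the 594 blue genes lower by at least 1, and named genes are circled.

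The libraries differed in more than the cytokine. Read from the smallest steps in the TPM values, the IFN-γ libraries had 18.4% to 22.4% of the depth of the deepest library of the series and the IL-10 libraries 51.6% to 82.0%, so that 1 TPM of a 2000 nt transcript stood for 5.03 to 6.14 reads under IFN-γ and 14.1 to 22.4 under IL-10. Replicates correlated at 0.955 to 0.962 under IFN-γ and at 0.989 to 0.991 under IL-10 (Pearson, across genes). Mitochondrially encoded genes took 8.31% ± 0.363 of the TPM under IFN-γ and 4.73% ± 0.377 under IL-10 (SD, n = 4 each, exact permutation p = 0.0286, two-sided, the smallest p that 4 against 4 allows). Depth and cytokine cannot be told apart in these 8 libraries. Without the scaling factor all fold changes shift toward IL-10, with a median of −0.30, and 28.6% in place of 50.7% of the called genes are higher under IFN-γ.

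Macrophage markers were abundant in both groups, with the summed TPM of the 20 markers of macrophage identity at 24283 to 25112 under IFN-γ and 23730 to 24045 under IL-10. T cell transcripts were present too: the 26 T cell markers summed to 738 to 1174 TPM under IFN-γ, 211 to 225 under IL-10 and 226 to 358 in M0. Il7r alone, at 96 ± 6.53 TPM under IFN-γ, 96.5 ± 2.71 TPM under IL-10 and 159 TPM in M0, took a large share of the lower sums; the other 25 summed to 641 to 1077, 116 to 131 and 71.3 to 193 TPM. None of the 26 was at 0 in all 8 libraries, and all 24 that could be tested were higher under IFN-γ (23 without scaling or after a correction for GC content and length). Collagen and contractile transcripts went the other way, with 13 stromal markers summing to 16.01 to 20.8 TPM under IFN-γ and 153 to 161 under IL-10. Mitochondrial ribosomal RNA was also unequal, at 17708 to 20012 TPM under IFN-γ and 545 to 598 under IL-10. The part that these differences have in the results below was not tested.

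**Figure D2:**
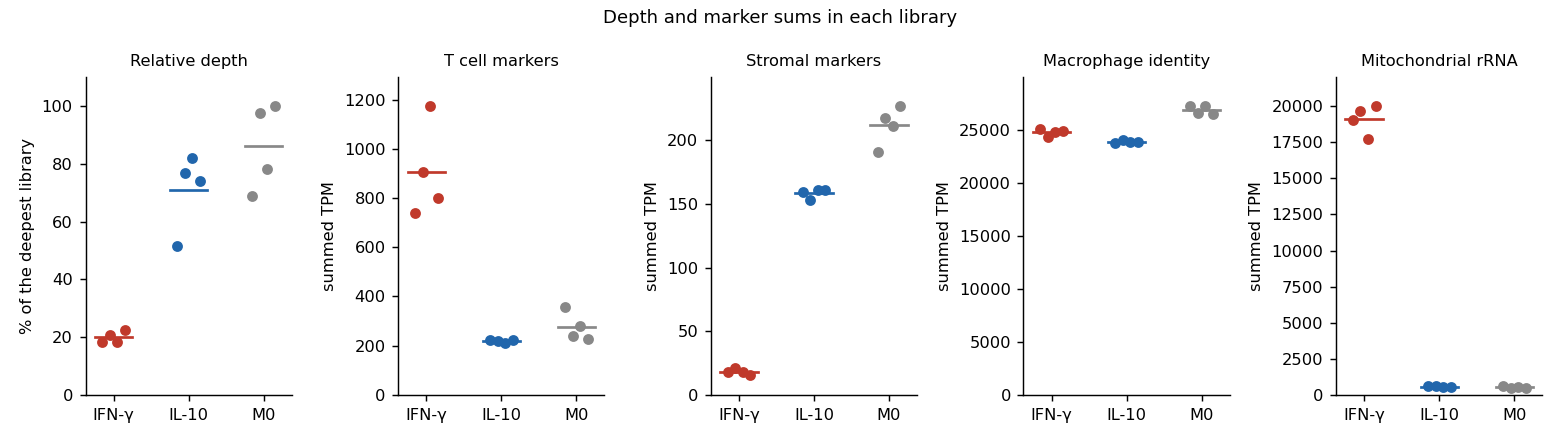
Points are single libraries and lines are group means: relative depth in percent of the deepest library, and the summed TPM of T cell markers, stromal markers, macrophage identity markers and mitochondrial rRNA. The IFN-γ libraries lie at 18.4% to 22.4% of the deepest library and hold more T cell and mitochondrial ribosomal RNA and less stromal RNA, while the macrophage sum differs little.

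The guanylate-binding proteins, GTPases that attack the vacuoles of intracellular pathogens, were higher under IFN-γ throughout. All 11 members were tested and all 11 were called higher, 10 of them by at least 1, with a median log2 fold change of 1.95. The family summed to 398 to 466 TPM under IFN-γ and 30.02 to 34.7 under IL-10. Gbp2 (chr3:142620602-142638008, mm10) stood at 279, 281, 221 and 268 TPM under IFN-γ and at 8.13, 7.91, 7.91 and 8.45 TPM under IL-10, a log2 fold change of 5.14 (SE 0.0863, adjusted p = 3.81e-10). Gbp4 (chr5:105115767-105139586) stood at 67.6, 67.8, 57.9 and 63.4 TPM under IFN-γ and at 0.84, 0.63, 0.73 and 0.75 TPM under IL-10, a log2 fold change of 5.44 (SE 0.102, adjusted p = 6.65e-10). Every IFN-γ library was far above every IL-10 library for both genes, and the M0 levels of 3.64 to 6.31 TPM for Gbp2 and 0.31 to 1.57 TPM for Gbp4 were close to those under IL-10. The smallest difference in the family was that of Gbp7, at 5.61 ± 1.26 TPM against 3.26 ± 0.361 TPM (log2 fold change 0.87). Some guanylate-binding proteins resemble each other closely, and the bounds of Gbp4 overlap those of Gbp9 (chr5:105077630-105139539), so reads may have been divided among such members in the quantification. Replicate 3 had the highest T cell sum of the IFN-γ libraries and their lowest Gbp2 and Gbp4.

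To show which promoters lie beside these levels, the 250 bases before the RefSeq start site (GRCm38.p6) are printed for 4 genes whose window holds a match: Gbp2 and Irf1, which were high under IFN-γ, and Socs3 and Saa3, which were high under IL-10. Each runs 5′ to 3′ on the gene's strand, and capitals mark a match on either strand to the ISRE core (GAAA, any 2 bases, GAAA) or to GAS (TTCNNNGAA).
Gbp2, chr3:142620413-142620662, plus strand: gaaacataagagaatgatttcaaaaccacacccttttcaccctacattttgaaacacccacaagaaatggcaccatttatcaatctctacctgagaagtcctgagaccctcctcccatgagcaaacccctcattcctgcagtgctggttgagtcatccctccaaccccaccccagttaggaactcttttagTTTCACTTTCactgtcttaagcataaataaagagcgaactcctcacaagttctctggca
Irf1, chr11:53769764-53770013, plus strand: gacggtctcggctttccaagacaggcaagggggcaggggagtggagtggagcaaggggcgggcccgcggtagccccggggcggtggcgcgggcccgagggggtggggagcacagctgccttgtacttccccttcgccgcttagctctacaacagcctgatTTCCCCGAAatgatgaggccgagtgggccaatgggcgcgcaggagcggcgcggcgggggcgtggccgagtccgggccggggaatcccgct
Socs3, chr11:117969367-117969616, minus strand: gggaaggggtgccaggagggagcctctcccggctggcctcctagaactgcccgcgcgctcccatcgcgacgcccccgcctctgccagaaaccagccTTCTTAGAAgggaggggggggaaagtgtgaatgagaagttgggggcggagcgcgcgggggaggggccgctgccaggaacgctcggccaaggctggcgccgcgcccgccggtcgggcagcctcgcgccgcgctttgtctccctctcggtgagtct
Saa3, chr7:46715677-46715926, minus strand: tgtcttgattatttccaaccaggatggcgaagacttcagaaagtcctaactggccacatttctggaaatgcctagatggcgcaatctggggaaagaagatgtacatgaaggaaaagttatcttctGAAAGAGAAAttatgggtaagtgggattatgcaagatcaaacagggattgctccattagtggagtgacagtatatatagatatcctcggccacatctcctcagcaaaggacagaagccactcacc
The ISRE core began 59 bases before the start site in Gbp2 and 125 bases before it in Saa3, and the GAS match began 90 bases before one of the start sites listed for Irf1 and 154 bases before it in Socs3. The window of another listed start site of Irf1 and that of Cxcl9, a gene high under IFN-γ, held neither motif. The GENCODE gene bounds printed for Gbp2, Socs3 and Saa3 begin further upstream than these RefSeq start sites. By those bounds the whole Socs3 window and the ISRE core of Gbp2 lie inside the gene. A match describes the letters and not a binding site, and matches lie here in genes of either direction.

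Over windows from 250 bases before to 50 after the start site, the ISRE core lay in 3.44% of all promoters of the RefSeq table and in 3.30% of those of genes tested. It lay in 7.28% of the promoters of genes higher under IFN-γ by at least 1, and in 3.16% of those of genes lower by at least 1. For GAS the shares were 8.30% of all promoters, 6.77% of those tested, 8.31% of those higher and 9.30% of those lower. By gene, the ISRE core was found in 5 of the 5 guanylate-binding proteins with a promoter in the table, in 6 of 7 immunity-related GTPases, in 11 of 17 type I interferon genes, in 5 of 20 genes of MHC class I and the immunoproteasome, in 1 of 11 of MHC class II, in 0 of 14 T cell markers and in 0 of 19 glycolysis genes, against 4.03% of genes tested. In the same order of lists, GAS was found in 2 of 5, 5 of 7, 6 of 17, 2 of 20, 1 of 11, 3 of 14 and 1 of 19 genes. Among genes tested the GAS share was 8.23%. Only 677 of the 1091 symbols of genes higher by at least 1 had a promoter in the table, and no test was made of these shares.

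The immunity-related GTPases, a second family directed at pathogen vacuoles, rose in 9 of 10 members tested, 8 by at least 1, with a median of 2.04. Irgm1, which regulates the others, stood at 63.2, 62.4, 63.5 and 63 TPM under IFN-γ and 22.3, 19.9, 20.9 and 21.4 TPM under IL-10, a log2 fold change of 1.83 (SE 0.0593, adjusted p = 1.54e-08). Its IFN-γ libraries were nearly equal to each other and all above those under IL-10. Tgtp2 was at 12.8 ± 2.77 TPM under IFN-γ and 1.71 ± 0.318 TPM under IL-10 (log2 fold change 2.58), and its near copy Tgtp1 at 5.03 ± 1.85 TPM and 0.405 ± 0.232 TPM (log2 fold change 2.24). Iigp1 was at 7.42 ± 0.519 TPM and 0.44 ± 0.0775 TPM (log2 fold change 2.73). Irgm2 was the tested member that was not called, with 5.48 ± 1.14 TPM under IFN-γ and 6.6 ± 0.249 TPM under IL-10.

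**Figure D3:**
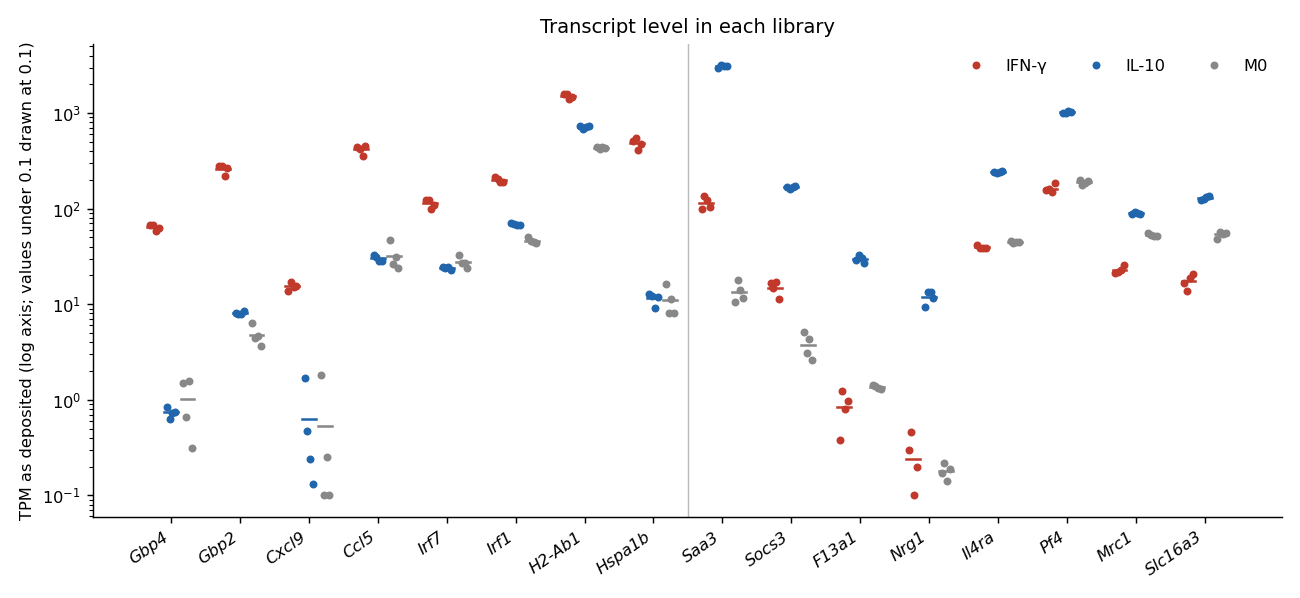
TPM of 16 genes on a log axis, with points for single libraries, lines for group means, and values under 0.1 drawn at 0.1. The 8 genes left of the grey line were higher under IFN-γ and the 8 right of it higher under IL-10, and the M0 libraries lie near the IL-10 level for Gbp2, Gbp4, Ccl5, Irf7 and Hspa1b and near the IFN-γ level for Il4ra, Pf4 and F13a1.

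Of the 19 genes of IFN-γ reception and signalling, 12 were higher and 3 lower under IFN-γ, 6 of them higher by at least 1, with a median of 0.32. Irf1, an early induced factor that activates further genes, stood at 213, 205, 189 and 189.61 TPM under IFN-γ and 70.4, 69.3, 66.8 and 66.7 TPM under IL-10, a log2 fold change of 1.83 (SE 0.053, adjusted p = 8.12e-09). Its lowest IFN-γ library lay well above its highest IL-10 library. Irf7, a regulator of type I interferon genes, was at 114 ± 11.8 TPM and 23.8 ± 0.744 TPM (log2 fold change 2.51), and Stat2 at 69.1 ± 8.41 TPM and 38.8 ± 1.07 TPM (log2 fold change 1.11). The feedback inhibitor Socs1 was at 3.98, 4.18, 6.98 and 3.82 TPM under IFN-γ and 0.53, 0.67, 0.68 and 0.94 TPM under IL-10 (log2 fold change 1.91). The receptor chain Ifngr1 went the other way, with 82.1, 81.5, 90.9 and 88.1 TPM under IFN-γ and 163, 168, 162 and 172 TPM under IL-10, a log2 fold change of −0.64 (SE 0.0479, adjusted p = 3.32e-06). Irf8, a macrophage lineage factor, was not called at 187 ± 7.93 TPM and 226 ± 6.46 TPM, and was called lower without scaling (log2 fold change −0.27, adjusted p = 0.000367). Without scaling the list had 7 higher and 6 lower.

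The 23 type I interferon antiviral genes, many of which are shared targets of IFN-γ, were higher under IFN-γ in 18 members and lower in 1, with 14 higher by at least 1 and a median of 1.46. Ifit3, which blocks translation of viral RNA together with its relatives, was at 32.9, 34.7, 37.3 and 32.9 TPM under IFN-γ and 6.86, 5.39, 7.46 and 5.97 TPM under IL-10 (log2 fold change 2.55). Usp18, which removes the ubiquitin-like ISG15 and damps interferon receptors, was at 17 ± 3.36 TPM and 2.76 ± 0.468 TPM (log2 fold change 2.50). Bst2, a membrane tether of virions, was at 789 ± 48.2 TPM and 332 ± 10.9 TPM (log2 fold change 1.55), and Isg15 at 61.9 ± 7.6 TPM and 30.9 ± 5.5 TPM (log2 fold change 1.29). The exception was Ifih1, a sensor of viral RNA, at 9.37 ± 0.813 TPM and 15.8 ± 0.955 TPM (log2 fold change −0.41). The list is thus not uniform, with Ifit1, Oas2, Isg20 and Eif2ak2 not called. Without IFN-γ replicate 1, Ifit1 was called higher (log2 fold change 0.74) and Eif2ak2 lower (−0.34), and without IFN-γ replicate 2 Oas2 was called higher (0.61).

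Antigen presentation by MHC class II was higher under IFN-γ in 8 of the 12 genes tested and lower in 1. Of these genes 6 were higher by at least 1, and the median was 1.13. The summed TPM of the 14 listed genes differed less, at 12847 to 13698 under IFN-γ and 12220 to 12433 under IL-10. H2-Ab1, a chain of the peptide-binding molecule, stood at 1586, 1585, 1396 and 1478 TPM under IFN-γ and 727, 677, 714 and 737 TPM under IL-10, a log2 fold change of 1.39 (SE 0.0497, adjusted p = 2.85e-08). H2-Aa and H2-Eb1 moved by almost the same amount, with log2 fold changes of 1.38 and 1.37. H2-Ob, part of a modulator of peptide loading that B cells also express, moved further, from 3.21 ± 0.749 TPM under IL-10 to 22.9 ± 1.76 TPM under IFN-γ (log2 fold change 2.78). Cd74, the invariant chain, differed less, at 2825 ± 169 TPM and 2277 ± 21.5 TPM (log2 fold change 0.62). Ciita, the master regulator of class II transcription, was not called: it stood at 9.13, 8.76, 4.74 and 7.72 TPM under IFN-γ and 7.99, 7.63, 7.52 and 8.02 TPM under IL-10, and its groups overlapped. It was called higher when IFN-γ replicate 3 was left out (log2 fold change 0.40, adjusted p = 0.0119) and after the correction for GC content and length (0.57, adjusted p = 0.0255), and turned to −0.07 without scaling. M0 libraries had 426 to 438 TPM of H2-Ab1 and 3.42 to 4.63 TPM of Ciita, below both treated groups. The B cell markers summed to 44.4 to 76.3 TPM under IFN-γ and 19.3 to 24.5 under IL-10, with Ighm at 36.7 ± 10.1 TPM and 9.01 ± 0.407 TPM. The 10 dendritic cell markers summed to 30.8 to 51.1 TPM and 23.3 to 27.8 TPM, and 3 of the 4 tested were higher by at least 1 and 0 lower. Clec9a was at 5.65 ± 3.55 TPM and 0.425 ± 0.312 TPM (log2 fold change 2.26). Ccr7, which is also counted among the T cell markers, was at 11.7 ± 4.01 TPM and 2.19 ± 0.418 TPM (log2 fold change 2.19). Flt3, Zbtb46 and Xcr1 were too low to test. Whether B cells or dendritic cells were present, and what part they had in the class II difference, was not tested.

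MHC class I and the immunoproteasome, which cuts peptides for it, were higher in 15 of 22 genes and lower in 1, with 9 higher by at least 1 and a median of 0.71. The heavy chain H2-K1 stood at 6606, 6904, 5673 and 6235 TPM under IFN-γ and 3297, 3222, 3439.5 and 3415 TPM under IL-10, a log2 fold change of 1.23 (SE 0.0586, adjusted p = 1.67e-07). Its partner B2m stood at 6107, 6083, 5889 and 6013 TPM and 2886, 3005, 3015 and 2894 TPM, a log2 fold change of 1.34 (SE 0.0266, adjusted p = 9.17e-10). These 2 genes were among the 6 named for the largest gains in TPM. Another heavy chain, H2-D1, had a log2 fold change of 0.25, at 4394 ± 93.9 TPM and 4586 ± 158 TPM, which turned to −0.06 without scaling. The peptide transporter Tap1 was at 144 ± 8 TPM and 93.8 ± 7.4 TPM (log2 fold change 0.92), the immunoproteasome subunit Psmb9 at 119.69 ± 9.73 TPM and 65.6 ± 3.68 TPM (log2 fold change 1.16) and the proteasome activator Psme2 at 334 ± 70.7 TPM and 134 ± 3.27 TPM (log2 fold change 1.59). The chaperone Canx was the 1 member that was lower (log2 fold change −0.64).

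Of the 23 chemokine ligands, 13 were tested, 5 were higher under IFN-γ, each by at least 1, and 3 were lower. Cxcl9, which attracts CXCR3-positive T cells, stood at 13.6, 17.2, 15.1 and 15.6 TPM under IFN-γ and 1.68, 0.47, 0.24 and 0.13 TPM under IL-10, a log2 fold change of 3.61 (SE 0.244, adjusted p = 1.72e-06). Ccl5, which attracts T cells and monocytes, stood at 441, 417, 352 and 457 TPM and 32.7, 31, 28.6 and 28.7 TPM, a log2 fold change of 4.04 (SE 0.088, adjusted p = 1.55e-09). Neither gene's groups overlapped, and the IL-10 values of Cxcl9 in replicates 2 to 4, at most 0.47 TPM, rest on few reads. T cells also express Ccl5, and the part of T cell RNA in its difference was not tested. Ccl3 and Ccl4, other inflammatory chemokines, were at 193 ± 13 TPM against 63.6 ± 2.8 TPM (log2 fold change 1.90) and 67 ± 12.3 TPM against 40.4 ± 4.93 TPM (log2 fold change 1.01). On the IL-10 side, Pf4, a platelet and macrophage chemokine, stood at 157, 160.01, 149 and 184 TPM under IFN-γ and 1013, 1009.5, 1062 and 1036 TPM under IL-10, a log2 fold change of −2.35 (SE 0.0642, adjusted p = 5.63e-09). With M0 at 178 to 199 TPM, the IL-10 libraries stood apart from both other groups for Pf4. Ccl6 and Cxcl2 were also lower under IFN-γ (log2 fold change −0.72 and log2 fold change −0.82).

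Cytokine genes moved in both directions, with 6 of 14 tested members higher and 5 lower, beside 27.8% and 27.0% over all genes tested. Tnf stood at 22.7, 12.6, 19.9 and 16.5 TPM under IFN-γ and 2.17, 3.46, 3.25 and 3.17 TPM under IL-10, a log2 fold change of 2.48 (SE 0.19, adjusted p = 3.99e-06). Il1b stood at 2.11, 2.32, 3.03 and 3.77 TPM and 12.3, 15.9, 13.6 and 14.1 TPM in the same order, a log2 fold change of −1.74 (SE 0.164, adjusted p = 1.70e-05). These inflammatory cytokines thus differed in opposite directions, and neither overlapped between groups. Il27 (log2 fold change 1.86), Il15 (log2 fold change 1.52) and Il18bp, which neutralises IL-18 (log2 fold change 1.34), were higher under IFN-γ, and Csf1 (log2 fold change −1.53) and Tgfb1 (log2 fold change −0.40) lower. Il12a, Il12b, Il6 and Il23a did not exceed 0.17 TPM in any of the 8 libraries and were not tested.

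Several textbook markers of classical and alternative activation were too low to test. Nos2, which makes nitric oxide, stood at 0.69, 1.36, 1.13 and 0.93 TPM under IFN-γ and 0.04, 0.1, 0 and 0.04 TPM under IL-10, and Acod1, which makes itaconate, at 2.14, 0.91, 2.01 and 0.83 TPM and 0.36, 0.35, 0.3 and 0.29 TPM. Arg1 was listed at 0 in the 4 IFN-γ libraries and at 0.84, 0.37, 0.29 and 1.4 TPM under IL-10. Cd163 and Ccl24 did not exceed 1.01 TPM in any of the 8. Ass1, which regenerates arginine for nitric oxide synthesis, was well expressed and stood at 28.9, 34.8, 43.5 and 34.1 TPM under IFN-γ and 5.72, 6.95, 6.77 and 8.27 TPM under IL-10, a log2 fold change of 2.47 (SE 0.138, adjusted p = 4.65e-07). Among 10 tested genes of alternative activation, 5 were higher and 3 lower, beside 27.8% and 27.0% over all genes tested. The mannose receptor Mrc1 was at 22.9 ± 1.92 TPM under IFN-γ and 89.9 ± 2.38 TPM under IL-10 (log2 fold change −1.63), while the beta-glucan receptor Clec7a was at 133 ± 5.74 TPM and 52.2 ± 2.14 TPM (log2 fold change 1.63). M0 macrophages had 175 TPM of Clec7a, more than either treated group.

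Genes of IL-10 reception and signalling were lower under IFN-γ in 11 of 19 members and higher in 5, with 5 lower by at least 1 and a median of −0.20, which was −0.02 after a correction for GC content and length. Socs3 (chr11:117966079-117970047), the inhibitor induced by STAT3, stood at 16.6, 14.9, 17 and 11.2 TPM under IFN-γ and 169.63, 162, 169 and 172 TPM under IL-10, a log2 fold change of −3.12 (SE 0.111, adjusted p = 2.81e-08). Il4ra, a receptor chain for IL-4 and IL-13 that IL-10 is known to raise, stood at 42.1, 39.1, 38.4 and 38.8 TPM and 244, 236, 244 and 249.59 TPM, a log2 fold change of −2.28 (SE 0.0482, adjusted p = 1.26e-09). M0 libraries held 2.62 to 5.16 TPM of Socs3 and 43.5 to 46.2 TPM of Il4ra, so the IL-10 libraries were the high group in both. Sbno2 and Bcl3, nuclear factors induced through STAT3, were also lower under IFN-γ (log2 fold change −1.47 and log2 fold change −1.20), as was the receptor gene Il21r (log2 fold change −1.23). Stat3 itself was not called, at 79.953 ± 9.998 TPM and 112 ± 6.44 TPM (log2 fold change −0.19, adjusted p = 0.101), but was called lower in 7 of 21 other settings, the replicate block among them (adjusted p = 0.0381). The IL-10 receptor chain Il10ra was at 64.9 ± 5.28 TPM and 92.4 ± 2.91 TPM (log2 fold change −0.20), a call that was lost or turned in 8 of 21 other settings.

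The largest fall of any named gene was that of Saa3 (chr7:46711998-46715700), an acute phase protein made by macrophages. It stood at 100.1, 137, 122 and 105 TPM under IFN-γ and 2982, 3152, 3103 and 3089.8 TPM under IL-10, a log2 fold change of −4.42 (SE 0.0835, adjusted p = 6.65e-10). M0 libraries held 10.6 to 17.8 TPM, so both cytokine groups were above M0 and the IL-10 libraries by far the most. F13a1, a coagulation factor subunit carried by macrophages, stood at 0.38, 1.23, 0.8 and 0.96 TPM and 29, 32.4, 30.2 and 27.1 TPM, a log2 fold change of −3.86 (SE 0.166, adjusted p = 8.85e-08). Nrg1, a growth factor of the EGF family, was at 0.3, 0.46, 0 and 0.2 TPM and 9.28, 13.4, 13.4 and 11.6 TPM, a log2 fold change of −3.21 (SE 0.185, adjusted p = 5.68e-07). The endothelin receptor gene Ednrb (log2 fold change −3.57), Nxpe5 (log2 fold change −3.75) and the checkpoint ligand gene Tnfsf14 (log2 fold change −2.72) followed the same order, with M0 means of 2.17 TPM, 5.5 TPM and 0.752 TPM that were nearer to IFN-γ. Cd300ld5, a member of the CD300 receptor family, had uneven IFN-γ values of 0, 0, 1.8 and 10.7 TPM against 20.5, 20.5, 19.6 and 25.5 TPM under IL-10 (log2 fold change −3.02).

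Among the genes named for the largest falls were Acta2, Col1a1, Col1a2 and Ccn2, which fibroblasts and smooth muscle cells express strongly. Acta2, smooth muscle actin, stood at 1.66, 0.52, 0.76 and 0.47 TPM under IFN-γ, 29.5, 26.8, 27.3 and 27.7 TPM under IL-10 and 38.1 to 48.5 TPM in M0. All 10 tested stromal markers were lower under IFN-γ by at least 1, with a median of −2.14, while Lum was at 0 in all 8 libraries and Dcn and Pdgfra were too low to test. In bulk RNA, fewer cells of a type and less RNA per cell cannot be told apart.

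Complement genes fell in 9 of 16 tested members and rose in 5, with a median of −0.81. The C1q chains, which opsonise dying cells, were lower under IFN-γ: C1qa stood at 286, 302, 299 and 310.42 TPM and 792, 778, 799.92 and 789 TPM under IL-10, a log2 fold change of −1.09 (SE 0.0333, adjusted p = 1.08e-08). The anaphylatoxin receptor C5ar1 was at 32.6 ± 6.2 TPM under IFN-γ and 154 ± 5.68 TPM under IL-10 (log2 fold change −1.92). Higher under IFN-γ were C3 (log2 fold change 1.42), Cfb (log2 fold change 1.87) and properdin, Cfp (log2 fold change 1.47), which build the alternative pathway convertase.

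Fcγ receptor genes, which bind IgG, were lower under IFN-γ in 5 of 6 members. Fcgr1, a high affinity receptor that IFN-γ is known to raise in human myeloid cells, stood at 57.2, 40.6, 60.5 and 64.4 TPM under IFN-γ, 189, 197, 189.9 and 189 TPM under IL-10 and 86.9 to 91.3 TPM in M0, a log2 fold change of −1.48 (SE 0.124, adjusted p = 7.30e-06). The inhibitory receptor Fcgr2b was at 180.23 ± 5.53 TPM and 462 ± 4.9 TPM (log2 fold change −1.04). The shared signalling chain Fcer1g was the member that was higher, at 1664 ± 31.3 TPM and 1265 ± 27 TPM (log2 fold change 0.70). Toll-like receptors and their adaptors fell in 12 of 16 tested members and rose in 1, with a median of −0.74. Tlr4, the receptor for endotoxin, stood at 5.02, 5.54, 5.36 and 5.4 TPM under IFN-γ and 25.3, 26, 25.2 and 24.4 TPM under IL-10, a log2 fold change of −1.77 (SE 0.0853, adjusted p = 1.81e-07). Tlr2 (log2 fold change −1.74), Tlr8 (log2 fold change −1.67) and the adaptor Myd88 (log2 fold change −1.34) were lower as well, and Ly96, the TLR4 co-receptor, was the one higher (log2 fold change 0.88), a call that was lost after the correction for GC content and length (0.40, adjusted p = 0.101).

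Genes for the recognition of dying cells were lower under IFN-γ in 11 of 17 tested members and higher in 4, with a median of −0.54. Pros1 and Gas6, ligands that bridge phosphatidylserine to the TAM receptors, were at 6.15 ± 2.3 TPM against 23.9 ± 2.46 TPM (log2 fold change −1.56) and 112 ± 3.6 TPM against 249 ± 5.21 TPM (log2 fold change −0.84). Of the receptors, Axl was higher under IFN-γ, at 51.7, 50.7, 38.5 and 39.7 TPM against 22.5, 25.5, 25.5 and 31.4 TPM under IL-10 (log2 fold change 1.06). M0 libraries held 44.5 to 59.2 TPM of Axl, so the IL-10 libraries were the low group. Mertk was at 20.4, 21.9, 21.5 and 22.2 TPM and 22.9, 24.5, 22 and 22.6 TPM, a log2 fold change of 0.20 (SE 0.0715, adjusted p = 0.0353), a call that was lost or turned in 10 of 21 other settings. Itgb5 and Itgav, which form the integrin αvβ5, were lower (log2 fold change −1.22 and log2 fold change −1.01), as was the uptake receptor Lrp1 (log2 fold change −1.08). Both groups were sorted as cells without uptake, so the values describe cells selected on that trait.

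Lysosomal genes were lower under IFN-γ in 20 of 32 members and higher in 6, with a median of −0.29, and 3 were lower by at least 1. The protease Ctsl stood at 1300.3, 1275, 1306 and 1331 TPM under IFN-γ and 3441, 3533, 3370.4 and 3439 TPM under IL-10, a log2 fold change of −1.09 (SE 0.0248, adjusted p = 1.90e-09). Ctsb, Ctsd and Gpnmb were among the 6 genes named for the largest losses of TPM, with Ctsb at 6302 ± 157 TPM and 13859 ± 223 TPM (log2 fold change −0.83). The regulator Tfeb (log2 fold change 1.05) and the calcium channel Mcoln1 (log2 fold change 0.95) were higher under IFN-γ, against the direction of most enzymes. LXR targets and cholesterol efflux genes were lower in 10 of 15 members and higher in 2, with a median of −0.44. The cholesterol exporter Abca1 stood at 12.2, 12.2, 12.2 and 15.1 TPM under IFN-γ and 56.1, 56.9, 55.1 and 53 TPM under IL-10, a log2 fold change of −1.72 (SE 0.0864, adjusted p = 2.24e-07). Apoe, the most abundant of them, was at 11635 ± 51.6 TPM and 24742 ± 1112 TPM (log2 fold change −0.78), and the lipid transfer protein Pltp at 761 ± 20.4 TPM and 2498 ± 42.9 TPM (log2 fold change −1.41). Cholesterol synthesis differed little: 18 of its 24 tested genes were not called, Sqle among them.

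Glycolysis was lower under IFN-γ in 17 of 20 genes and higher in 1, with 6 lower by at least 1 and a median of −0.83. The lactate exporter Slc16a3 (chr11:120948480-120960868) stood at 16.5, 13.6, 18.7 and 20.5 TPM under IFN-γ and 123, 127, 131 and 135 TPM under IL-10, a log2 fold change of −2.54 (SE 0.111, adjusted p = 9.77e-08). The glucose importer Slc2a1 stood at 9.93, 13.8, 11.1 and 10.9 TPM and 54.5, 53, 55.7 and 53.8 TPM, a log2 fold change of −1.87 (SE 0.0972, adjusted p = 2.91e-07), and the phosphofructokinase Pfkl at 8.22 ± 1.66 TPM and 53.4 ± 2.99 TPM (log2 fold change −2.28). The enzymes from Tpi1 to Ldha followed, with log2 fold changes of −1.10 for Tpi1, −0.62 for Gapdh, −1.32 for Eno1, −0.97 for Pkm and −0.84 for Ldha. Hk3, a hexokinase of myeloid cells, was the exception, at 483, 474, 339 and 421 TPM under IFN-γ and 158, 154, 162 and 158 TPM under IL-10 (log2 fold change 1.73). M0 libraries lay between the groups for Slc16a3, Slc2a1 and Pfkl. Hif1a, a transcription factor that drives glycolytic genes, was at 40.9 ± 4.62 TPM under IFN-γ, 90.1 ± 4.83 TPM under IL-10 and 31.7 TPM in M0 (log2 fold change −0.82). Of 20 TCA cycle genes, 5 were higher and 6 lower, none by at least 1, which is near the shares over all genes tested (27.8% and 27.0%).

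**Figure D4:**
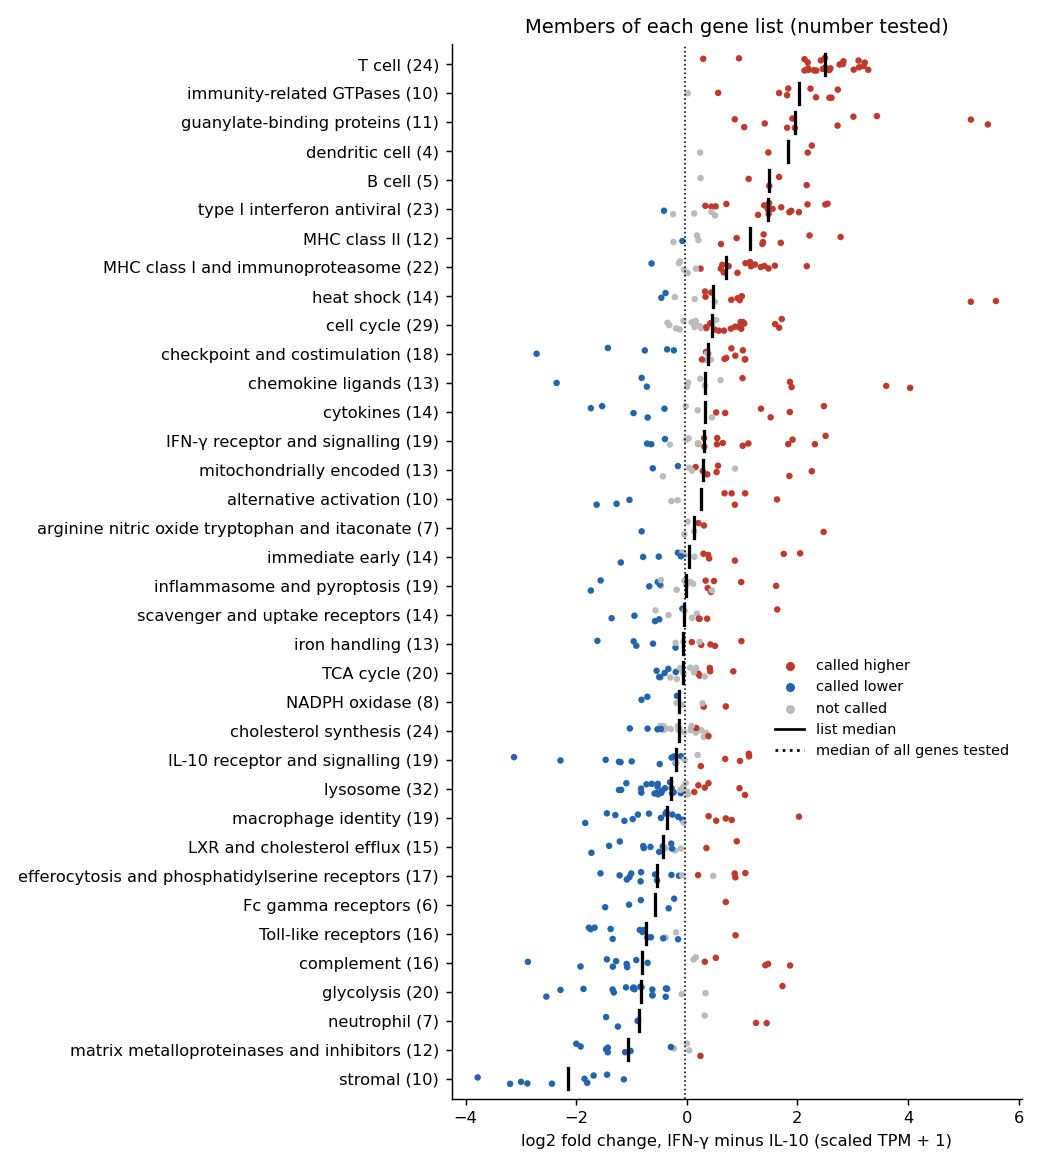
Each row is a gene list with at least 4 tested members, ordered by its median (black bar), and each point is a member's log2 fold change, IFN-γ minus IL-10, red where called higher, blue where called lower and grey where not called. T cell markers, immunity-related GTPases and guanylate-binding proteins have medians of 2.50, 2.04 and 1.95, and stromal, metalloproteinase and glycolysis genes medians of −2.14, −1.07 and −0.83.

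Checkpoint and costimulation genes rose in 10 of 18 tested members and fell in 5. Cd274, the ligand PD-L1, stood at 176, 175, 162 and 173 TPM under IFN-γ, 138, 131, 126 and 132 TPM under IL-10 and 84.1 to 91 TPM in M0, a log2 fold change of 0.68 (SE 0.0469, adjusted p = 1.90e-06). Cd80 (log2 fold change 1.01) and Tnfrsf14 (log2 fold change 1.05) were higher too, while Pirb, an inhibitory receptor for class I molecules, was at 203 ± 11.1 TPM and 677 ± 9.55 TPM (log2 fold change −1.43). Inflammasome genes had 6 higher and 5 lower of 19 tested, near the shares over all genes tested (27.8% and 27.0%), with a median of −0.01. Among them the DNA sensor Aim2 was at 109.56 ± 16.5 TPM and 43.3 ± 3.02 TPM (log2 fold change 1.62), and the pyrin gene Mefv at 6.17 ± 0.982 TPM and 24.6 ± 1.5 TPM (log2 fold change −1.56). Matrix metalloproteinases and inhibitors fell in 8 of 12 tested members and rose in 1, with Mmp14 at 8.82 ± 1.57 TPM and 44.1 ± 3.02 TPM (log2 fold change −1.92) and Mmp19 at 8.58 ± 2.1 TPM and 44.9 ± 1.25 TPM (log2 fold change −1.998). Mmp12, the macrophage elastase, was not called, at 181 ± 10.2 TPM and 218 ± 7.22 TPM, both far under the 844 TPM of M0, and was called lower without scaling (−0.27, adjusted p = 0.00115) and after the correction for GC content and length (−0.26, adjusted p = 0.00076). Of iron genes, 5 were higher and 5 lower of 13 tested, beside 27.8% and 27.0% over all genes tested. The haem-degrading enzyme Hmox1 was at 113 ± 6.41 TPM and 432 ± 7.06 TPM (log2 fold change −1.62), and the iron exporter Slc40a1 at 17.8 ± 5.93 TPM and 10.2 ± 0.292 TPM (log2 fold change 0.99).

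Macrophage identity genes were lower under IFN-γ in 13 of 19 tested members and higher in 5, with a median of −0.37, although their summed TPM was slightly higher. The growth factor receptor Csf1r stood at 408, 429, 385 and 407 TPM under IFN-γ and 933, 928, 905 and 963 TPM under IL-10, a log2 fold change of −0.88 (SE 0.0399, adjusted p = 1.17e-07). The integrin Itgam (log2 fold change −1.45) and the chemokine receptor Ccr2 (log2 fold change −1.84) were lower too. Lyz2, lysozyme, carried most of the sum and was higher, at 15025 ± 314 TPM and 12883 ± 133 TPM (log2 fold change 0.53), as was Aif1 at 181 ± 28.4 TPM and 54 ± 6.19 TPM (log2 fold change 2.03). Of 29 cell cycle genes, 16 were higher and 0 lower, with a median of 0.46. Aurkb, a mitotic kinase, was at 33.3, 26.9, 17.5 and 15.2 TPM under IFN-γ and 6.89, 10.3, 7.29 and 9.29 TPM under IL-10 (log2 fold change 1.60), while Mki67 was not called at 3.37 ± 0.606 TPM and 3.57 ± 0.233 TPM.

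The largest difference of all named genes was that of a mitochondrial ribosomal RNA, mt-Rnr1, at 11222, 11628, 10420 and 11863 TPM under IFN-γ and 246, 247, 235 and 236 TPM under IL-10, a log2 fold change of 5.85 (SE 0.0449, adjusted p = 1.77e-12). The other, mt-Rnr2, had a log2 fold change of 4.86. Of the 13 mitochondrial protein-coding genes, 7 were higher and 2 lower. Their median of 0.29 turned to −0.02 without scaling and to −0.39 after correction for GC content and length. One message, mt-Co2, was among the genes named for the largest gains in TPM, at 17724 ± 2065.5 TPM and 4601 ± 704 TPM (log2 fold change 2.26). The ribosomal RNAs moved further on the log2 scale than any of the messages. Rn7sk, a small nuclear RNA without a poly(A) tail, also stood out, at 360.41 ± 49.961 TPM and 32.1 ± 5.17 TPM (log2 fold change 3.75).

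The inducible chaperones Hspa1a and Hspa1b, which refold damaged proteins, were also among the 12 genes named for the largest rises. Hspa1b stood at 516, 549, 408 and 480.24 TPM under IFN-γ, 12.8, 12.3, 9.11 and 11.8 TPM under IL-10 and 8.07 to 16.3 TPM in M0, a log2 fold change of 5.59 (SE 0.117, adjusted p = 1.26e-09). The pair are near copies, so reads may be shared between them, and Hspa1a had a log2 fold change of 5.14. Other chaperones moved less: of 14 heat shock genes, 9 were higher and 2 lower, with a median of 0.47, and Hsp90aa1 was at 137 ± 21.1 TPM and 84.8 ± 13.2 TPM (log2 fold change 1.00). Hsf1, which drives the heat shock response, was not called, at 22.7 ± 2.76 TPM and 25.2 ± 1.37 TPM. Immediate early genes, which respond to handling as well as to signals, were higher in 6 and lower in 5 of 14 tested. The shares over all genes tested were 27.8% and 27.0%. Nr4a1 was at 31.2 ± 8.03 TPM and 8.34 ± 1.24 TPM (log2 fold change 2.05) and Egr1 at 5.93 ± 0.548 TPM and 18.2 ± 1.33 TPM (log2 fold change −1.19).

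T cell transcripts had the highest median of all lists, 2.50, and 22 of the 24 tested were higher by at least 1. The receptor gene Trbc2 stood at 117, 166, 244 and 137 TPM under IFN-γ and 20.5, 19.1, 16.7 and 21.5 TPM under IL-10, a log2 fold change of 3.28 (SE 0.192, adjusted p = 6.39e-07). All IFN-γ libraries were above all IL-10 libraries, and replicate 3 was the highest. Cd4 (log2 fold change 2.50) and the regulatory T cell factor Foxp3 (log2 fold change 2.20) followed, and Il7r moved least (log2 fold change 0.30, −0.01 without scaling). Cd8a and Cd8b1 were too low to test, at 0.385 ± 0.482 TPM and 0.615 ± 0.415 TPM under IFN-γ. Ly6a, a surface protein of activated lymphocytes that interferon also raises, was among the 12 genes named for the largest rises. It stood at 113, 109, 90.7 and 124 TPM under IFN-γ and 7.7, 8.12, 5.49 and 7.1 TPM under IL-10 (log2 fold change 4.05). The part of T cell RNA in Ly6a was not tested.

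The remaining genes named for the largest rises were Fhl1 and Zmiz1os1. Fhl1, a LIM domain protein gene, was at 65.1 ± 8.66 TPM and 5.12 ± 1.51 TPM (log2 fold change 3.74). Zmiz1os1, a non-coding transcript on the strand opposite Zmiz1, was at 22.8 ± 3.78 TPM and 0.905 ± 0.119 TPM (log2 fold change 3.85). The libraries were strand-specific, but whether the quantification used the strand is not given in the sources used here. By class, 7.56% of 10874 protein-coding genes were higher under IFN-γ by at least 1 and 4.87% lower. Among 694 long non-coding or unclassified genes the shares were 22.9% and 4.61%, and among 451 pseudogenes 17.7% and 6.21%. Of 36 antigen receptor segments, 21 were higher by at least 1.

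Against M0 as a reference point, the levels under IL-10 were the nearer ones for 1054 of the 1095 genes higher under IFN-γ by at least 1 (96.3%). For the 594 genes lower under IFN-γ by at least 1, M0 was nearer to IL-10 for 433 (72.9%) and nearer to IFN-γ for 161, Socs3, Il4ra, Pf4, F13a1 and Saa3 among them. The labels of M0 name neither a co-culture nor a sort, and these libraries overlap in depth with the IL-10 libraries (68.8% to 100% of the deepest), so these counts describe levels and are not a test of either cytokine. Fewer genes were listed above 0 TPM under IFN-γ, at 15493 ± 159.8 per library against 17906 ± 385 under IL-10 (SD, n = 4 each, exact permutation p = 0.0286, two-sided). At 1 TPM or more the order turned, with 12128 ± 70.9 genes under IFN-γ and 11907 ± 26.3 under IL-10. Relative depth was 18.4% to 22.4% of the deepest library under IFN-γ and 51.6% to 82.0% under IL-10. The part of depth in these counts was not tested.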

How the data were processed

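The libraries were directional (NEBNext Ultra II) and made from poly(A) RNA, per the labels' protocols. The authors deposited TPM values per Ensembl gene, per the file headers, with 55487 identifiers a library, of which 55141 were matched to a GENCODE vM21 symbol and 346 were not. RSEM, STAR and the mm10 genome are named in the submitters' processing notes; the strand setting is not given in the sources used here.

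From these values limma 3.58.1 (R 4.3.3; lmFit, eBayes with a mean-variance trend) was run over the 8 libraries, with no covariate, on log2 of scaled TPM with 1 added. Scaling used a trimmed mean of log2 ratios without weights (30% trimmed from the ratios, 5% from the levels). The test took genes that reached 1 TPM in 4 or more libraries, p-values were adjusted over all of them (Benjamini-Hochberg), and genes were called under 0.05. The fit was tested on simulated data. Files hold no counts, so depth was read from 14527 genes with 1 transcript of 500 to 2000 nt, where 89.9% to 92.3% of low values in these 8 libraries lay within 0.15 reads of a whole number. This gives relative depth but no total of reads, and the reads per TPM hold only if the smallest step is 1 read. Permutation tests enumerated all 70 splits. Promoters came from RefSeq (GRCm38.p6).

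Genes were named by a rule: the 12 largest rises and 12 largest falls without overlap and with a mean of at least 5 TPM, the 6 largest TPM differences each way, key genes of the lists, and the 3 largest changes in each list. Genes with predicted or clone names, or names ending in Rik or -ps, were passed over for the largest changes. Another 58 list members were named after their values were seen. Some genes that the rule names are not reported here and were not replaced. The members, the 38 lists and the tests were chosen with earlier results of these data known. Deviations of same-numbered replicates from their group means were nearly uncorrelated, which does not settle whether the numbers pair them. Alternatives were other scalings, pseudocounts and filters, variance weights, a replicate block, a correction for GC content and length, all 28 libraries in 1 model, and leaving out each library. The 16 phagocytic libraries were otherwise not used.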

Additional observations from a re-analysis of the deposited data

Results flagged for a closer look

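Of 378 groups of 4 libraries examined for the named genes, 18 (4.76%) held 1 library far from the other 3, against about 1 in 20 expected by chance; 12 were IFN-γ groups and 6 IL-10 groups. IFN-γ replicate 3 was the far library for Gbp2 (221 TPM, others 268 to 281), Socs1 (6.98, others 3.82 to 4.18), Cd274 (162, others 173 to 176), H2-T23 (867, others 937 to 956), H2-Eb1 (1179, others 1366 to 1425) and Nr4a1 (43.1, others 26.01 to 28). That library also had the highest T cell sum of the IFN-γ group, 1174 TPM. IFN-γ replicate 4 was low for Igtp (25.6, others 33.1 to 34.5) and high for Abca1 (15.1, others 12.2) and Ifih1 (10.6, others 8.84 to 9.04). IFN-γ replicate 2 was high for Hsp90aa1 (169, others 125 to 129) and C3 (84.2, others 74.3 to 76.5), and replicate 1 for Gas6 (118, others 109 to 112).

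Among IL-10 libraries, replicate 4 was high for Cd300ld5 (25.5 TPM, others 19.6 to 20.5), replicate 2 for Mki67 (3.92, others 3.42 to 3.48) and Tlr2 (46.0, others 42.4 to 42.9), and replicate 1 was low for Tgtp2 (1.23, others 1.84 to 1.90) and Psmb9 (60.2, others 66.3 to 68.1) and high for Hsf1 (27.3, others 24.3 to 24.8). No library was left out for these values.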

How the results depend on the processing

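Of 189 tested named genes, 171 kept their direction and their side of the threshold in all 21 other settings in which they could be tested. The count of genes called was 6628, and 5822 to 6797 with 1 library left out; it was 3551 with a filter of a mean of 20 TPM, which tests fewer genes. The count at a difference of at least 1 was 1689, and 1660 to 1790 with 1 library left out; without scaling it was 2074, with 767 higher and 1307 lower in place of 1095 and 594; it was 777 with a pseudocount of 5, 1075 with a filter of a mean of 5 TPM and 558 with a filter of a mean of 20 TPM. The difference in genes listed above 0 TPM was −2413.5 (−2599.58 to −2317.58 with 1 library left out) and turned to 221.5 at 1 TPM or more. With a replicate block, 6235 genes were called and 1706 at a difference of at least 1. Deviations from the group means correlated at −0.065 to 0.094 between same-numbered libraries and at −0.064 to 0.047 between the others. Correlations this small cannot decide whether the numbers mark a shared animal or culture.

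Calls were gained by Stat3 in 7 settings, Ciita in 3, Oas2 and Eif2ak2 in 4 each, and Hsf1, Mki67 and Ifit1 in 1 each. Directions turned for differences of 0.30 or less in size; past the threshold when turned were Mmp12 and Irf8. Without scaling these were Ciita (−0.067), Mertk (−0.092), Mmp12 (−0.27), Mki67 (−0.075), Wars (−0.094), Irf8 (−0.27), Irgm2 (−0.25), H2-D1 (−0.061), Isg20 (−0.16), Il7r (−0.0094) and Hsf1 (−0.15). With no filter they were Mmp12 (−0.060), Irf8 (−0.070) and Irgm2 (−0.070), and with a filter of a mean of 20 TPM Mmp12 (−0.0063) and Irf8 (−0.015). After the GC and length correction, alone or with the replicate block, Il10ra was at 0.085 and Mmp12 at −0.26. With 1 library left out, Irgm2 ranged from −0.092 to 0.12. The cause was not tested. Depth limits the IFN-γ libraries most, where 1 TPM of a 2000 nt transcript is 5.03 to 6.14 reads.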

Other observations

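Other gene groups showed smaller or mixed differences, to be read beside the 27.8% higher and 27.0% lower over all genes tested. Of 8 NADPH oxidase genes, 2 were higher and 3 lower under IFN-γ: the membrane subunit Cyba was at 2071 ± 6.79 TPM against 1574 ± 45.5 under IL-10 (log2 fold change 0.70). Of 14 tested scavenger and uptake receptors, 4 were higher and 5 lower; the C-type lectin gene Clec4a1 was at 72.4 ± 9.17 against 231 ± 12.98 (−1.36) and the scavenger receptor gene Msr1 at 40.2 ± 8.03 against 95.8 ± 5.97 (−0.95). Fth1, the ferritin heavy chain, was at 64540 ± 598 against 59483 ± 1370 (0.43).

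Transcripts of other blood cells were scarce. Of the markers tested, 2 of 2 erythroid genes were higher under IFN-γ, and 2 of 7 neutrophil genes were higher and 3 lower. S100a8, a calcium-binding protein of neutrophils, was at 17.6 ± 1.60 against 7.48 ± 2.09 TPM (1.44) and Mmp8, a neutrophil collagenase, at 5.29 ± 0.89 against 19.8 ± 0.959 (−1.46), while Ly6g was at 0 in all 8 libraries. Hbb-bs, a globin of red cells, was at 8.38, 20.9, 13.5 and 4.38 TPM under IFN-γ and at 0.63 to 1.55 under IL-10 (2.65). None of the 11 NK and mast cell markers was high enough to test. The 70 replication-dependent histone genes summed to 630 to 689 TPM under IFN-γ and 505 to 541 under IL-10, and 5 small structural RNAs, chosen after their values were seen, to 3984 to 4310 and 583 to 711.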
